A study of Mus musculus with 6 samples.

Results

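The splicing factor genes described here are the 78 protein-coding genes whose symbols begin with Snrp, Sf3a or Sf3b, Srsf, Hnrnp, Prpf or Lsm followed by a digit, of 21963 protein-coding genes and 53023 genes of any type in the expression table. They comprised 12 Snrp genes, 9 SF3 genes, 11 SR protein genes (Srsf), 20 hnRNP genes, 13 Prpf genes and 13 Lsm genes. RNA-seq was carried out on ICR mouse 2-cell embryos at 28 hours post insemination (hpi), with 3 groups, 2 libraries per group and a pool of 5 embryos in each library. The PIASy-WT group came from fertilized oocytes whose cytoplasm received mRNA of PIASy, a SUMO E3 ligase encoded by Pias4. The PIASy-Mut group received mRNA of the C335F form, a mutant of the SUMO ligase, at the same concentration of 100 ng/µl. The non-injection group, called without injection where values are listed, received no mRNA and no injection, so that only PIASy-Mut shared the injection with PIASy-WT. Injected embryos were also picked by the fluorescence of the fused reporter, which the non-injected embryos were not. Each library therefore averaged its pooled embryos, and in such bulk samples fewer cells of a type and less RNA per cell cannot be told apart. The labels do not say whether the replicate pools came from separate fertilizations, so P-values measure the spread between these libraries only.

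Introns are removed from pre-mRNA by the spliceosome, which is assembled on each intron from small nuclear ribonucleoproteins (snRNPs). U1 binds the 5′ splice site, U2 binds the branch point, and the U4/U6.U5 tri-snRNP then joins and is remodelled into the catalytic machine. The Snrp genes encode the Sm ring shared by the snRNPs and proteins particular to U1 or U2, the SF3 genes encode the SF3a and SF3b complexes of U2, and most Prpf genes encode tri-snRNP proteins or other spliceosome components. The SR proteins bind exons and promote their inclusion, whereas hnRNP proteins coat nascent transcripts and often oppose inclusion. The Lsm proteins form rings around the 3′ end of RNA, one in the nucleus on U6 and one in the cytoplasm that takes part in mRNA decay. In the mouse, the 2-cell stage is when the major wave of zygotic transcription begins, while transcripts inherited from the oocyte are being removed.

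The promoters of the members are shown for a pair of genes that were lower in PIASy-WT, Sf3b6 and Srsf5, and for a pair that was not called, Snrpb2 and Snrpg, because the same ETS letters were found in all of them. All 4 were chosen for display after their values and matches were seen. Each run is the RefSeq window (assembly GRCm38.p6) from 250 bases before to 50 bases after the annotated start, 5′ to 3′ on the strand of the gene, and capitals mark matches to the motifs named after the runs. Sf3b6 lies at chr12:4817358-4817657 on the plus strand, Srsf5 at chr12:80945249-80945548 on the plus strand, Snrpb2 at chr2:143062819-143063118 on the plus strand and Snrpg at chr6:86371290-86371589 on the plus strand.
Sf3b6: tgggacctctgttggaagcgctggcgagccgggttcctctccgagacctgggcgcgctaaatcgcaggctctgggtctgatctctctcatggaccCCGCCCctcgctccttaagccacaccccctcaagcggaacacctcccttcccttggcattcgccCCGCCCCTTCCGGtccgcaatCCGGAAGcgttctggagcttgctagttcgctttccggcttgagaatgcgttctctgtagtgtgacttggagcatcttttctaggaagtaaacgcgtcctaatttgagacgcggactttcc
Srsf5: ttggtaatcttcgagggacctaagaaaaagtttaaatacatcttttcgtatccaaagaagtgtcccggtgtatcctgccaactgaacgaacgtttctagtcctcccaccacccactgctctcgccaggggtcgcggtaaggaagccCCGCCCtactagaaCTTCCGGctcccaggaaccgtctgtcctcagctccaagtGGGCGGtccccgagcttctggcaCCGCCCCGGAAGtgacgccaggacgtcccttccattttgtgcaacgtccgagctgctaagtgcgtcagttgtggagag
Snrpb2: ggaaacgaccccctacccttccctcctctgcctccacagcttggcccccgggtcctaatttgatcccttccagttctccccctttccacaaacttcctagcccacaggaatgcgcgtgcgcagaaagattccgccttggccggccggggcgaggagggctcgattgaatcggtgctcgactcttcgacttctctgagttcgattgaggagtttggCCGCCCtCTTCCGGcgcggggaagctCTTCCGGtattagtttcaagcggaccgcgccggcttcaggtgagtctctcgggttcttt
Snrpg: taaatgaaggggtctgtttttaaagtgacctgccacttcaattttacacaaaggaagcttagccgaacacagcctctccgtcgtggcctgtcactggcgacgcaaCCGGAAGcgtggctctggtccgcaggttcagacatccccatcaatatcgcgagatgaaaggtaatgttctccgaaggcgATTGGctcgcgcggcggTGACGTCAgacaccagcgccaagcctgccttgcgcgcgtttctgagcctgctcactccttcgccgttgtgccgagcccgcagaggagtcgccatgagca
The motifs searched on both strands were the GC box GGGCGG, the CCAAT box CCAAT, the TATA box TATAAA, the E-box CACGTG, the cAMP response element TGACGTCA, the ETS site CCGGAAG, the NRF1 site GCGCATGC and the YY1 site AAGATGGC. With the start at 0, the ETS letters began at -85 and -70 in Sf3b6, at -90 and -23 in Srsf5, at -28 and -9 in Snrpb2 and at -145 in Snrpg. In Srsf5 the latter match overlapped a GC box by 1 base. RefSeq windows were matched for 67 of the 78 genes, 89 windows in all. The ETS letters were in 29.2% of the member windows and in 8.86% of the 32851 windows of all genes, and the GC box was in 67.4% and 35.7%, respectively. The TATA box was in 7.87% of the member windows against 13.6% of all windows, the CCAAT box in 46.1% against 37.4%, the E-box in 12.4% against 7.15%, the NRF1 site in 6.74% against 2.71%, the YY1 site in 5.62% against 2.75% and the cAMP response element in 3.37% against 1.79%. The median GC content was 60.3% in the member windows and 52.7% in all windows. Among the 13 windows of genes called lower in PIASy-WT, 3 held the ETS letters, and among the 12 windows of genes with fold changes above 0 in both comparisons of PIASy-WT, 3 did. A match gives the letters only, and binding was not measured in these embryos.

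The libraries held between 871663 and 1363928 fragments on genes, recovered from the FPKM values, which are fragments scaled to the length of the gene and the total of the library. Pias4 stood at 2.98 and 3.59 FPKM without injection, 862 and 611 with PIASy-Mut and 610 and 579 with PIASy-WT, values that sum endogenous and injected mRNA. All 6 markers of the 2-cell stage in the table were above 3 fragments in every library, with a summed level of 949 to 1305 CPM in PIASy-WT and 1702 to 2057 CPM in the other libraries (CPM, fragments scaled to the same total in each library). Of 10 cumulus cell markers, 1 or 2 exceeded 3 fragments in any library and their summed level was at most 19.5 CPM. The 8 markers of oocyte RNA summed to 4326 and 3902 CPM without injection, 4091 and 6262 with PIASy-Mut and 7829 and 7555 with PIASy-WT. Their median log2 fold changes were 0.48 against non-injection and -0.10 against PIASy-Mut, and limma called 1 of them, Zp3, lower in both comparisons and 0 higher. Of 4 blood markers, 1 or 2 exceeded 3 fragments in any library, with a summed level of 51.3 and 49.6 CPM in PIASy-WT, most of it Cd74, and 19.5 to 30.1 CPM in the other libraries, and Hbb-bt was listed at 0 throughout. The part of these markers in the results was not tested. Spike-in RNA has no entry in the table, so each level is a share of its library.

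The question addressed was whether the genes of the splicing machinery differed in level between embryos with active PIASy, embryos with the ligase mutant and embryos left uninjected. Most of them had negative fold changes in PIASy-WT, of which a minority passed the test with limma. Of the 78 genes, 74 reached 1 FPKM in at least 2 libraries and were tested among 16100 genes with limma on log2(FPKM + 1), a scale that understates the change of low genes. At an adjusted P of at most 0.05, PIASy-WT was lower than non-injection for 10 of 74, beside 5.76% of all genes tested, and lower than PIASy-Mut for 10, beside 6.01%. In both comparisons 8 genes were called, and 12 were called in either. In the direction of higher values limma called 0 of 74 for non-injection (1.03% of all genes) and 0 of 74 for PIASy-Mut (0.82%). At an unadjusted P below 0.05, 3 and 1 members were higher, beside 1708 and 1523 of all 16100 genes. The members had a median log2 fold change of -0.88 (non-injection) and -0.86 (PIASy-Mut), beside 0.01 and -0.03 over all genes tested and -0.08 and -0.11 over 8020 protein-coding genes with at least 10 fragments on average. A log2 fold change at or below -1 was found for 30 of the 74 against non-injection (21.1% of all genes) and for 33 against PIASy-Mut (21.6%). None of the 74 reached a log2 fold change of 1 or more, which 13.5% and 12.7% of all genes did.

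The libraries themselves showed the same order. Both PIASy-WT libraries lay below all 4 others for 46 of the 74 genes, which was so for 24.4% of all genes tested, and above all 4 others for 6 genes, beside 19.9% of all genes. The 46 all had at least 10 fragments on average, a level that 68 of the members reached, and among protein-coding genes at that level 35.7% were ordered in this way. The median FPKM over the members was 20.7 and 23.6 without injection, 24.3 and 18.6 with PIASy-Mut and 10.1 and 9.63 with PIASy-WT. Both PIASy-WT medians lay below the other 4.

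**Figure D1:**
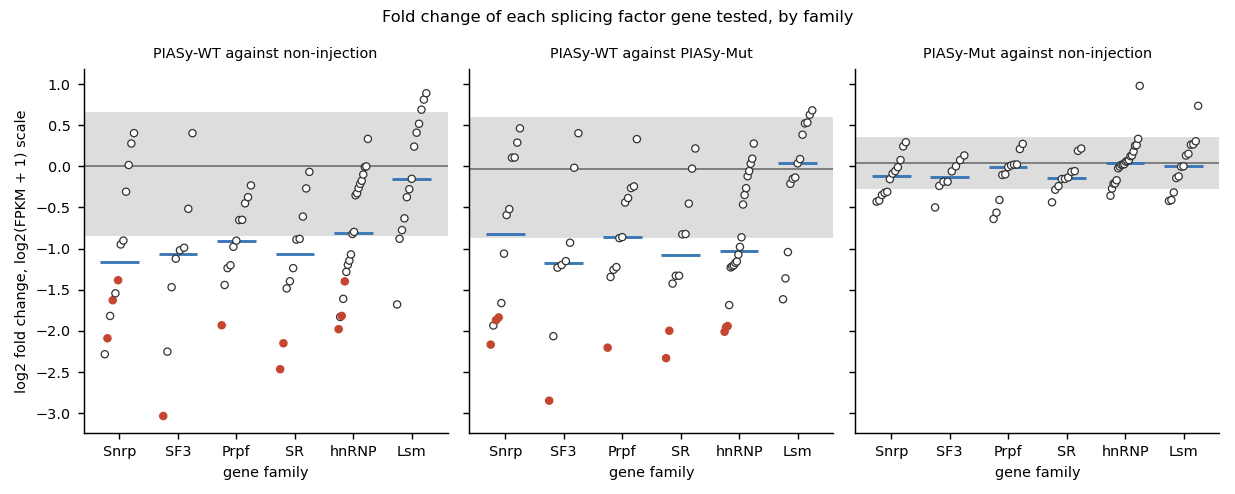
Log2 fold change (y axis) of each splicing factor gene tested, by family (x axis), in 3 comparisons. Circles are genes, filled where the adjusted P is at most 0.05, blue bars are family medians, and the grey line and band are the median and the interquartile range of all 16100 genes. In both comparisons of PIASy-WT the filled genes lie below -1, the Lsm median lies near 0 and those of the other families lie between -1.18 and -0.81, and in PIASy-Mut against non-injection no circle is filled.

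The number of calls depended on the libraries in the fit. Without either library of non-injection or of PIASy-WT, limma called no gene in either comparison, members included. Leaving out PIASy-Mut 1 or PIASy-Mut 2 also moved the number called, over all 16100 genes as well as over the members. The member median against PIASy-Mut was then -0.59 and -1.04, respectively, and that against non-injection stayed at -0.88. The medians stayed between -1.04 and -0.59 in these fits. With limma-voom on the recovered fragments, members called lower numbered 35 of 70 for non-injection (19% of all genes tested by voom) and 33 for PIASy-Mut (18.8%), with all 10 calls of each limma comparison among them. In that fit 1 member, Lsm1, was called higher than in non-injection (8.51% of all genes) and 0 were called higher than in PIASy-Mut (5.94%).

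The 12 genes called lower were spread over 5 of the 6 families. They were Sf3b6, Srsf2, Snrpc, Srsf5, Prpf38a, Hnrnpm, Hnrnpk, Hnrnpa2b1, Snrpd2, Snrpa, Hnrnpu and Snrpd1, in order of the mean of both log2 fold changes. For each of them both PIASy-WT libraries lay below the other 4. This order is favoured by their selection on the same values and is no further support.

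**Figure D2:**
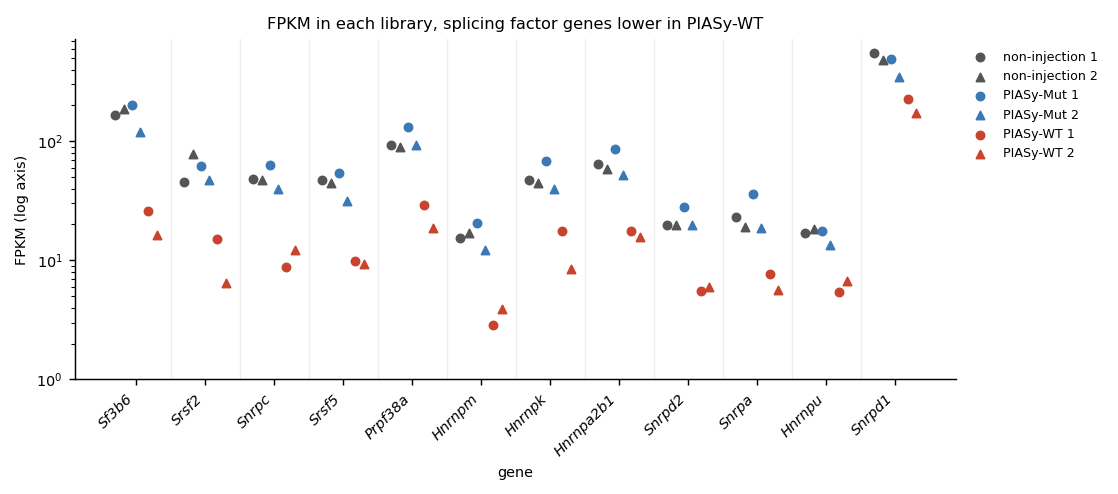
FPKM (y axis, log scale) of the 12 splicing factor genes called lower in PIASy-WT (x axis), with 1 point per library. The red points of PIASy-WT, whose values the calls used, lie below the 4 other points for every gene. PIASy-Mut 2 lies below PIASy-Mut 1 for every gene.

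Among the SF3 genes, Sf3b6 encodes the SF3b subunit that contacts the branch point region. It had 167 and 186 FPKM without injection, 202 and 119 with PIASy-Mut and 25.9 and 16.5 with PIASy-WT, the highest level of its family in non-injection. The mean of PIASy-WT (21.2 ± 6.68, SD, n = 2) was 8.34-fold below that of non-injection and 7.57-fold below that of PIASy-Mut. The log2 fold change was -3.03 ± 0.35 (SE, adjusted P = 0.0224, limma) and -2.85 ± 0.35 (adjusted P = 0.0235), respectively, the most negative of all members. The gene spans chr12:4817544-4827659 on the plus strand (mm10), and its exons shared 0% of their 50-base words with other transcripts and 0% of their bases with exons of other genes. Sf3a3, a subunit of SF3a, had 52.1 and 40.3 FPKM without injection, 68.2 and 23.5 with PIASy-Mut and 8.94 and 8.75 with PIASy-WT. Its PIASy-WT libraries lay below the others, and its adjusted P was 0.0523 for non-injection and 0.062 for PIASy-Mut (limma). Of the 8 SF3 genes tested, 7 had negative fold changes in both comparisons, with medians of -1.07 and -1.18. The exception was Sf3b3, a large scaffold subunit of SF3b, with 2.22 and 1.86 FPKM without injection, 2.31 and 1.79 with PIASy-Mut and 3.25 and 2.79 with PIASy-WT. Its log2 fold changes of 0.40 ± 0.37 and 0.40 ± 0.37 (SE) were not called, with an adjusted P of 0.511 and 0.517 (limma). Sf3b1, the subunit that holds the branch point helix, had 32.1 and 20.5 FPKM without injection, 25.3 and 23.8 with PIASy-Mut and 13.5 and 11.4 with PIASy-WT. It was named after its values were seen, and its log2 fold changes of -0.99 and -0.93 were not called (adjusted P = 0.104 and 0.119, limma).

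Among the Snrp genes, Snrpc encodes U1-C, which steadies the pairing of U1 with the 5′ splice site. It had 47.8 and 47.2 FPKM without injection, 63.6 and 39.5 with PIASy-Mut and 8.86 and 12.2 with PIASy-WT. The mean of PIASy-WT was 4.52-fold below that of non-injection and 4.90-fold below that of PIASy-Mut, with log2 fold changes of -2.09 ± 0.32 and -2.17 ± 0.32 (SE, adjusted P = 0.0308 and 0.0273, limma). Snrpd2, an Sm ring subunit, fell from 19.6 and 19.9 FPKM without injection and 28.1 and 19.7 with PIASy-Mut to 5.48 and 5.98 with PIASy-WT (log2 fold changes of -1.63 and -1.87, adjusted P = 0.0361 and 0.0292, limma). The 2 PIASy-WT values of Snrpd2 were close to each other and far from the rest. Snrpa, which encodes the U1-A protein of the U1 snRNP, had 23.0 and 19.1 FPKM without injection, 36.0 and 18.6 with PIASy-Mut and 7.64 and 5.58 with PIASy-WT, and was called only against PIASy-Mut (log2 fold change of -1.84, adjusted P = 0.0481, limma), with -1.54 and an adjusted P of 0.0671 against non-injection. Snrpa shared 20.2% of its 50-base words with other transcripts, pseudogenes among them, and 11.0% of its exonic bases overlapped BC024978. Snrpd1, another Sm subunit and the most abundant of the Snrp genes by FPKM in non-injection, had 551 and 481 FPKM without injection, 490 and 345 with PIASy-Mut and 225 and 172 with PIASy-WT. It was called only against non-injection (log2 fold change of -1.38, adjusted P = 0.0457), with -1.06 and an adjusted P of 0.078 against PIASy-Mut (limma). The difference between the 2 fold changes of a gene is its fold change in PIASy-Mut against non-injection, which was 0.29 ± 0.39 for Snrpa and -0.32 ± 0.29 for Snrpd1 (SE, adjusted P = 1 for each, limma).

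Other subunits of the same particles had fold changes on both sides of 0. Snrpa1, the U2-A′ protein, had 54.3 and 74.7 FPKM without injection, 84.3 and 29.3 with PIASy-Mut and 15.7 and 9.60 with PIASy-WT, and its log2 fold changes of -2.28 and -1.93 were not called (adjusted P = 0.0584 and 0.082, limma). Over the alternative fits, the log2 fold change of Snrpa1 against PIASy-Mut ran from -2.68 to -1.19. The U2-B″ protein, partner of U2-A′, is encoded by Snrpb2, which had 43.4 and 43.6 FPKM without injection, 39.0 and 47.8 with PIASy-Mut and 52.3 and 53.6 with PIASy-WT. For Snrpb2 both PIASy-WT libraries were thus above the other 4, with log2 fold changes of 0.28 ± 0.24 and 0.29 ± 0.24 (SE) that were not called. Snrpg, the smallest Sm ring protein, had 250 and 228 FPKM without injection, 205 and 246 with PIASy-Mut and 279 and 209 with PIASy-WT, and its groups overlapped (log2 fold changes of 0.02 ± 0.26 and 0.11 ± 0.26, SE). Snrpb, which encodes the SmB and SmB′ ring proteins, had 43.4 and 71.6 FPKM without injection, 62.3 and 40.1 with PIASy-Mut and 20.6 and 11.0 with PIASy-WT (adjusted P = 0.0591 and 0.0702, limma). Its close relative Snrpn, which encodes SmN, had 27.8 and 31.5 FPKM without injection, 20.2 and 39.9 with PIASy-Mut and 41.2 and 37.9 with PIASy-WT. The groups of Snrpn overlapped between PIASy-Mut and PIASy-WT, and 34.1% of its exonic bases lay in exons of other genes. Snrpb, Snrpb2 and Snrpg were named after their values were seen. Over the 12 Snrp genes tested, the medians were -1.17 and -0.83, 9 and 8 fold changes were negative, and both PIASy-WT libraries were lowest for 8 genes (24.4% of all genes). For Snrpf, 89.5% of the 50-base words were shared with other transcripts, so its values are uncertain.

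Among the SR protein genes, Srsf2 (SC35), which binds exonic enhancers and is found in nuclear speckles, had 45.6 and 77.4 FPKM without injection, 62.2 and 46.9 with PIASy-Mut and 15.0 and 6.47 with PIASy-WT. The mean of PIASy-WT was 5.72-fold below that of non-injection and 5.07-fold below that of PIASy-Mut, with log2 fold changes of -2.47 ± 0.46 and -2.33 ± 0.46 (SE, adjusted P = 0.0383 and 0.0419, limma). Mettl23 and Mfsd11 on the opposite strand overlapped 25.3% of the exonic bases of Srsf2, and the counting is not stated to use the strand. Srsf5, another regulator of exon choice, had 47.6 and 44.6 FPKM without injection, 53.9 and 31.6 with PIASy-Mut and 9.84 and 9.38 with PIASy-WT. It fell 4.80-fold and 4.45-fold, with log2 fold changes of -2.15 ± 0.32 and -2.00 ± 0.32 (SE, adjusted P = 0.0292 and 0.0293, limma). The PIASy-WT values of Srsf5 were nearly equal, and the gene lies at chr12:80945504-80950507 on the plus strand (mm10). Srsf7, the most abundant SR gene by FPKM in non-injection, had 166 and 95.1 FPKM without injection, 205 and 99.7 with PIASy-Mut and 68.5 and 40.5 with PIASy-WT, and was not called (adjusted P = 0.158 and 0.121, limma) although both PIASy-WT libraries were lowest. Srsf3, the smallest of the SR proteins, had 31.4 and 23.7 FPKM without injection, 26.4 and 19.99 with PIASy-Mut and 28.8 and 17.5 with PIASy-WT. Its groups overlapped, and its fold changes of -0.27 ± 0.34 and -0.03 ± 0.34 (SE) were within their errors and changed sign with the scaling. Of the 10 SR genes tested, 2 were called lower in each comparison (5.76% and 6.01% of all genes), both PIASy-WT libraries were lowest for 8 (24.4% of all genes), and the medians were -1.06 and -1.08.

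Among the hnRNP genes, Hnrnpm, an RNA-binding regulator of alternative exons, had 15.3 and 17.1 FPKM without injection, 20.6 and 12.2 with PIASy-Mut and 2.89 and 3.89 with PIASy-WT. It was 4.78-fold and 4.84-fold lower in PIASy-WT, with log2 fold changes of -1.98 ± 0.36 and -1.95 ± 0.36 (SE, adjusted P = 0.0359 and 0.0357, limma), and 24.9% of its exonic bases overlapped the gene March2. Hnrnpa2b1, which binds pre-mRNA and takes part in RNA transport, fell from 64.0 and 58.4 FPKM without injection and 85.6 and 51.9 with PIASy-Mut to 17.8 and 15.6 with PIASy-WT (adjusted P = 0.033 and 0.0293, limma). Hnrnpu, a large nuclear scaffold protein, had 16.8 and 18.1 FPKM without injection, 17.8 and 13.4 with PIASy-Mut and 5.40 and 6.68 with PIASy-WT. It was called only against non-injection (log2 fold change of -1.40, adjusted P = 0.0481), with -1.23 and an adjusted P of 0.062 against PIASy-Mut (limma). Hnrnpk, which binds C-rich RNA, had 47.2 and 44.99 FPKM without injection, 68.8 and 39.7 with PIASy-Mut and 17.5 and 8.48 with PIASy-WT, and was called only against PIASy-Mut (log2 fold change of -2.01, adjusted P = 0.0478), with -1.83 and an adjusted P of 0.0566 against non-injection (limma). Hnrnpk shared 17.8% of its 50-base words with other transcripts, mostly pseudogenes. Hnrnpab, whose mRNA the study also injected in its screen of maternal proteins, had 68.5 and 76.9 FPKM without injection, 110 and 53.2 with PIASy-Mut and 22.8 and 23.5 with PIASy-WT. Its PIASy-WT libraries were the lowest, and its log2 fold changes of -1.61 and -1.69 were not called (adjusted P = 0.0566 and 0.0522, limma). It shared 23.8% of its 50-base words with other transcripts, and Phykpl on the opposite strand overlapped 29.1% of its exonic bases. Hnrnpc, which binds U-rich stretches and was the most abundant hnRNP gene by FPKM in non-injection, had 113 and 125 FPKM without injection, 150 and 103 with PIASy-Mut and 67.0 and 68.8 with PIASy-WT (log2 fold changes of -0.80 and -0.86, adjusted P = 0.118 and 0.102, limma). Hnrnpul2, a relative of Hnrnpu, had 19.97 and 14.98 FPKM without injection, 17.1 and 19.0 with PIASy-Mut and 23.7 and 20.5 with PIASy-WT. Both PIASy-WT libraries of Hnrnpul2 were above the other 4, and its log2 fold changes of 0.33 ± 0.28 and 0.28 ± 0.28 (SE) were not called. Over the 20 hnRNP genes, all tested, the medians were -0.81 and -1.03, 3 were called lower in each comparison (5.76% and 6.01% of all genes), and both PIASy-WT libraries were lowest for 13 (24.4% of all genes). Hnrnpa1 and Hnrnpf shared 28.2% and 61.9% of their 50-base words with other transcripts, pseudogenes among them, and their levels are uncertain.

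Among the Prpf genes, Prpf38a, a protein of the spliceosome just before activation, was the most abundant by FPKM in non-injection. It had 93.1 and 89.3 FPKM without injection, 131 and 93.1 with PIASy-Mut and 28.9 and 18.6 with PIASy-WT. The mean in PIASy-WT was 3.84-fold and 4.72-fold lower, with log2 fold changes of -1.93 ± 0.31 and -2.20 ± 0.31 (SE, adjusted P = 0.0318 and 0.0252, limma). Its relative Prpf38b had 5.06 and 6.87 FPKM without injection, 3.90 and 3.47 with PIASy-Mut and 4.89 and 4.88 with PIASy-WT, so that the PIASy-WT values lay between those of the other groups. Prpf4, a U4/U6 protein, had 6.46 and 9.04 FPKM without injection, 10.6 and 4.65 with PIASy-Mut and 2.39 and 1.99 with PIASy-WT, and was not called (adjusted P = 0.104 and 0.120, limma). Of the 11 Prpf genes tested, fold changes were negative for 11 against non-injection and for 10 against PIASy-Mut, and had medians of -0.90 and -0.86. Prpf8, the U5 protein at the catalytic centre, had 3.24 and 3.20 FPKM without injection, 2.21 and 2.15 with PIASy-Mut and 2.73 and 0.933 with PIASy-WT, was named after its values were seen and did not separate the groups.

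The Lsm genes had medians near 0 in both comparisons of PIASy-WT. Of the 13 genes, limma called 0 in either direction. At an unadjusted P below 0.05, 2 were lower and 3 higher than in non-injection, and 3 lower and 1 higher than in PIASy-Mut. Over all 16100 genes, 2838 were lower and 1708 higher than in non-injection at that P, and 2933 and 1523 than in PIASy-Mut. Of the 11 genes it tested, voom called 1 lower in each comparison (Lsm8) and 1 higher than in non-injection (Lsm1). The first count was below the share of all genes that voom called lower (19% and 18.8%), and the second was near the share called higher (8.51%). The medians were -0.15 and 0.04, and neither kept its sign. The first turned to 0.13 under quantile normalization, and the second to -0.05 with a filter of 5 FPKM, to -0.08 without PIASy-Mut 2 and to -0.0014 without PIASy-WT 2. Whether the fold changes of the Lsm genes differed from those of the other families was not tested, since genes are not replicates.

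The Lsm subunits particular to the nuclear and the cytoplasmic ring had fold changes of opposite sign, and whether they were called depended on the fit. Lsm8, the subunit particular to the nuclear ring on U6, had 29.9 and 41.3 FPKM without injection, 43.8 and 17.8 with PIASy-Mut and 11.9 and 8.91 with PIASy-WT. Its PIASy-WT libraries were the lowest, and its log2 fold changes of -1.68 ± 0.46 and -1.36 ± 0.46 (SE) were not called by limma (adjusted P = 0.0812 and 0.123), while voom gave an adjusted P of 0.00874 and 0.0270. Of the 17 alternatives, voom among them, 5 called Lsm8 against non-injection and 2 called it against PIASy-Mut, and its fold change against PIASy-Mut was -0.73 without PIASy-Mut 1 and -1.99 without PIASy-Mut 2 (adjusted P = 0.313 and 0.0332, limma). Lsm1, the subunit particular to the cytoplasmic ring of mRNA decay, had 46.2 and 44.6 FPKM without injection, 42.6 and 58.2 with PIASy-Mut and 75.9 and 85.2 with PIASy-WT. Both PIASy-WT libraries of Lsm1, a gene named after its values were seen, were above the other 4, and its log2 fold changes of 0.81 ± 0.26 and 0.68 ± 0.26 (SE) were not called by limma (adjusted P = 0.106 and 0.152), while voom gave an adjusted P of 0.0401 against non-injection. With limma it was called higher than in non-injection with only the groups compared and without either PIASy-Mut library, and higher than in PIASy-Mut without PIASy-Mut 2 (adjusted P = 0.0479). Of the shared ring subunits, Lsm4 had 10.6 and 7.67 FPKM without injection, 13.1 and 18.8 with PIASy-Mut and 5.81 and 3.35 with PIASy-WT (adjusted P = 0.196 and 0.0599, limma). The other shared subunits, Lsm2, Lsm3, Lsm5, Lsm6 and Lsm7, had log2 fold changes between -0.63 and 0.52 against non-injection, and limma called none of them. Lsm10, of the U7 snRNP that processes histone pre-mRNA and the most abundant Lsm gene by FPKM in non-injection, had 88.6 and 119 FPKM without injection, 109 and 148 with PIASy-Mut and 157 and 176 with PIASy-WT. Its PIASy-WT libraries were the highest, and its log2 fold changes of 0.69 ± 0.28 and 0.38 ± 0.28 (SE) were not called. Lsm14b, a protein of cytoplasmic mRNP granules, had 6.85 and 6.42 FPKM without injection, 8.37 and 7.93 with PIASy-Mut and 10.2 and 16.8 with PIASy-WT (log2 fold changes of 0.89 ± 0.34 and 0.63 ± 0.34, SE, adjusted P = 0.155 and 0.292, limma). Its PIASy-WT libraries were also the highest of the 6.

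**Figure D3:**
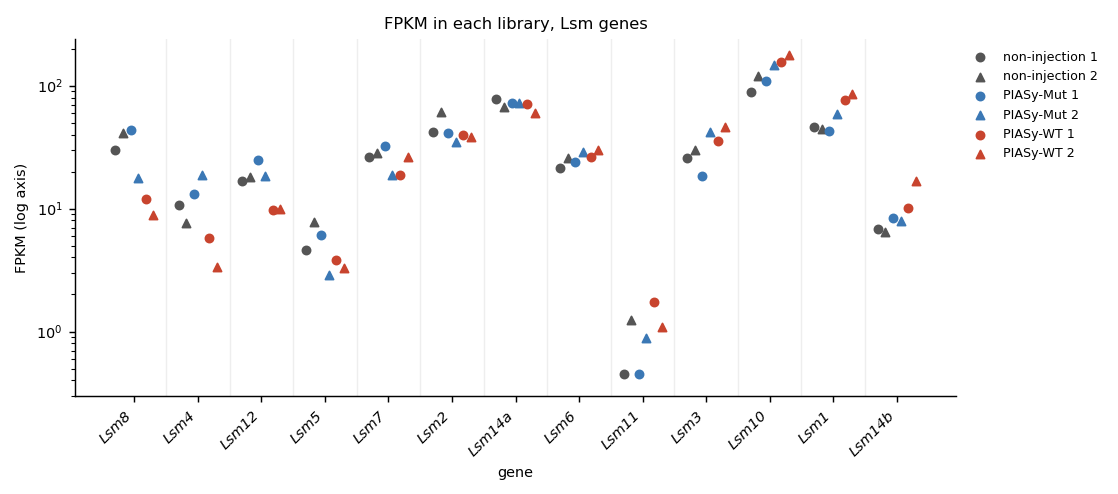
FPKM (y axis, log scale) of the 13 Lsm genes (x axis), with 1 point per library, in order of the mean log2 fold change of PIASy-WT. The red points of PIASy-WT lie below the others on the left, for Lsm8 at 11.9 and 8.91, and above them on the right, for Lsm1 at 75.9 and 85.2.

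Shares of fragments were also taken by family, which weights the members by their abundance. The 78 genes held 1.10% and 1.07% of the fragments without injection, 1.25% and 0.886% with PIASy-Mut and 0.599% and 0.542% with PIASy-WT. The SF3 genes went from 0.128% and 0.123% without injection and 0.144% and 0.0910% with PIASy-Mut to 0.0408% and 0.0345% with PIASy-WT. The hnRNP genes went from 0.269% and 0.274% without injection and 0.343% and 0.233% with PIASy-Mut to 0.145% and 0.134% with PIASy-WT. The PIASy-WT shares were the lowest in each of these, whereas the Lsm genes held between 0.124% and 0.135% in every library. The direction of the medians of the Snrp, SF3, SR, hnRNP and Prpf genes in both comparisons of PIASy-WT was negative in all 18 fits run, those with other scalings included. Some of these fits changed only the variance setting, the block or the libraries of the group not compared. They left the fold changes as they were, so their agreement was fixed in advance.

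**Figure D4:**
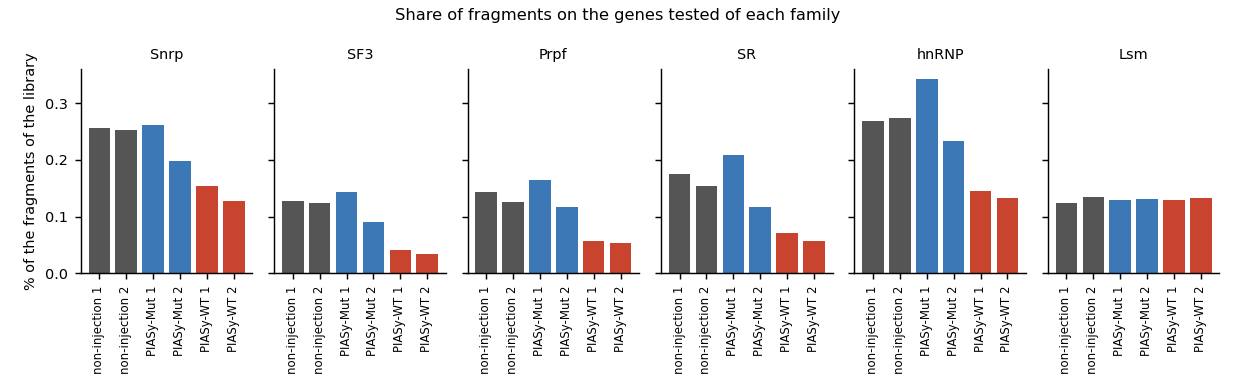
Share of the fragments of each library, in percent (y axis), on the genes tested of each family (panels), with 1 bar per library (x axis). The bars of PIASy-WT are the shortest in every family but Lsm, where all 6 bars lie between 0.124% and 0.135%.

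Ratios within a library do not depend on its scaling, and 5 pairs of related members are given, chosen after their values were seen. The FPKM of Lsm8 over that of Lsm1 was 0.646 and 0.925 without injection, 1.03 and 0.305 with PIASy-Mut and 0.156 and 0.105 with PIASy-WT. For Snrpa1 over Snrpb2, whose proteins sit together on U2, it was 1.25 and 1.71 without injection, 2.16 and 0.613 with PIASy-Mut and 0.300 and 0.179 with PIASy-WT. For Snrpb over Snrpn it was 1.56 and 2.27, 3.08 and 1.01, and 0.5 and 0.291, in the same order of groups. In all of these the PIASy-WT ratios were the lowest of the 6, and PIASy-Mut 2 was the lowest of the other 4. For Prpf38a over Prpf38b the PIASy-WT ratios were 5.92 and 3.8, against 13.0 to 33.5 in the other libraries. For Snrpd2 over Snrpg they were 0.0196 and 0.0286, against 0.0783 to 0.137. With 2 libraries against 2, an exact permutation test cannot go below 0.333, and none was run.

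**Figure D5:**
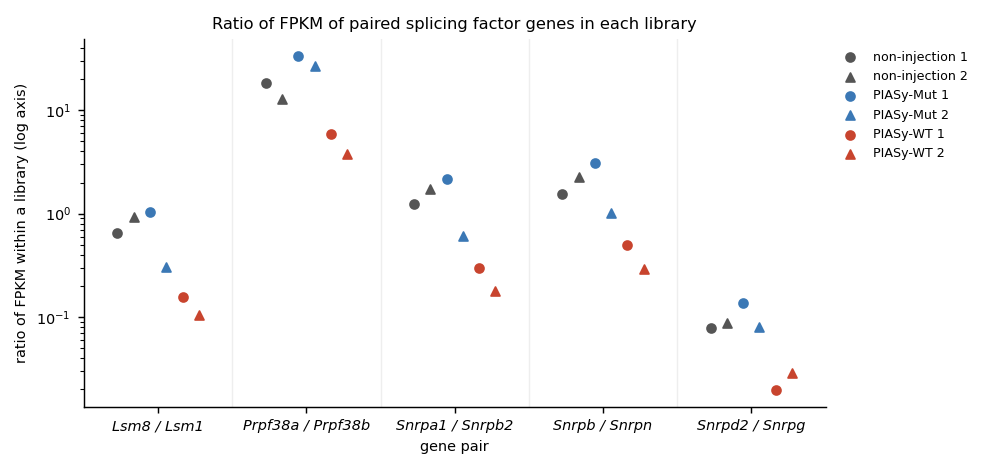
Ratio of the FPKM of a pair of splicing factor genes within a library (y axis, log scale) for 5 pairs (x axis), with 1 point per library. The red points of PIASy-WT are the lowest for every pair, for example 0.156 and 0.105 for Lsm8 over Lsm1.

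In PIASy-Mut against non-injection, limma called no splicing factor gene, and of all genes it called Pias4 alone. It called 0 of 74 members lower (0% of all genes) and 0 higher (0.00621% of all genes). At an unadjusted P below 0.05, 0 were lower and 0 higher, beside 336 and 382 of all 16100 genes. By voom 0 members were called. The median log2 fold change was -0.02, beside 0.04 over all genes. The replicates of PIASy-Mut differed, with PIASy-Mut 2 below PIASy-Mut 1 for 59 of the 74 genes and below both non-injection libraries for 43. These orders were counted for the members only, so whether they are particular to the members was not tested. The median was 0.21 without PIASy-Mut 2 and -0.25 without PIASy-Mut 1, beside 0.06 and 0 over all genes. The summed oocyte markers also stood apart in PIASy-Mut 2, at 6262 CPM beside 4091 in PIASy-Mut 1, and their part in this difference was not tested.

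Of the members, 4 were not tested. Prpf40b and Srsf12 were under 1 FPKM in all libraries, with at most 1 fragment in any of them. Prpf19, the ubiquitin ligase of the NTC complex, had 0 to 9 fragments and between 0 and 1.08 FPKM, with 0 in both PIASy-Mut libraries. Sf3a2, another SF3a subunit, was counted with 2 and 3 fragments without injection, 3 and 0 with PIASy-Mut and 0 in both PIASy-WT libraries, which is at the limit of 3 fragments for every library.

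Other genes of the splicing machinery, in 7 lists that do not include the members, were also described, beside 5.76% (non-injection) and 6.01% (PIASy-Mut) of all genes called lower. Of 12 proteins of the minor spliceosome, which removes the rare U12-type introns, 5 were called lower in PIASy-WT in the comparison with non-injection and 4 in that with PIASy-Mut, with medians of -1.55 and -1.39. Zmat5, of the U11/U12 particle, had 37.6 and 33.3 FPKM without injection, 52.8 and 36.8 with PIASy-Mut and 0.605 and 2.09 with PIASy-WT (adjusted P = 0.0224 and 0.0219, limma). It was followed by Snrnp35, of the same particle, and Scnm1, with log2 fold changes of -2.68 and -2.09 against non-injection, and Scnm1 was not called against PIASy-Mut (adjusted P = 0.0509, limma). Of 19 snRNP assembly factors tested, 6 and 7 were called lower, with medians of -1.37 and -1.38. Snupn, which carries snRNPs into the nucleus, had 209 and 303 FPKM without injection, 392 and 175 with PIASy-Mut and 41.2 and 18.8 with PIASy-WT. Coil, the marker protein of Cajal bodies, and Ncbp1, of the nuclear cap-binding complex, had log2 fold changes of -2.75 and -2.43 against non-injection and were called in both comparisons (limma). Of 36 factors of the NTC and the catalytic steps, 7 and 9 were called lower (medians of -0.82 and -0.97), led by Ctnnbl1, the helicase gene Dhx8 and Ppil1, whose log2 fold changes lay between -2.44 and -2.11 in both comparisons.

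Of 26 other U snRNP proteins tested, 3 and 4 were called lower (medians of -0.89 and -0.87). U2af1, whose protein reads the 3′ splice site, had 84.3 and 101 FPKM without injection, 114 and 69.5 with PIASy-Mut and 19.4 and 25.9 with PIASy-WT, and Luc7l and Snu13 were also called in both comparisons (limma). Of 20 genes of the exon junction complex and its export partners, 5 were called lower in each comparison (medians of -1.02 and -0.97). Eif4a3, the helicase that clamps the complex on mRNA, had 208 and 216 FPKM without injection, 265 and 136 with PIASy-Mut and 53.0 and 30.3 with PIASy-WT, and the export receptor gene Nxf1 was called as well. Rbm8a2, also called, is a near copy of Rbm8a, so that the split of their fragments is uncertain. Of 22 SR protein kinases and SR-like factors tested, 1 was called lower in each comparison, Ppp1r8 (medians of -0.65 and -0.44), and this count was near the share of all genes called lower (5.76% and 6.01%). Of 36 other regulators of alternative splicing tested, 4 and 2 were called lower (medians of -0.37 and -0.37), of which the second count was also near the share of all genes. Rbmx was called in both comparisons, whereas Syncrip and Rbm4 were called only against non-injection, with an adjusted P of 0.0625 and 0.103 against PIASy-Mut (limma). In the direction of higher values limma called 0 genes of these 7 lists in either comparison (1.03% and 0.82% of all genes). Per list, 0 to 3 were higher at an unadjusted P below 0.05, beside 1708 and 1523 of all 16100 genes. By voom 0 to 2 were called higher, beside 8.51% and 5.94% of all genes.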

How the data were processed

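RNA-seq had been performed by the authors with a SMART-Seq v4 kit on pools of 5 embryos. Per the submitters' processing notes and the methods of the study, reads were trimmed with Trim Galore, aligned to mm10 with STAR, and uniquely mapped reads were counted with featureCounts. The values deposited are FPKM, in 1 table. The annotation release and the use of strand are not given in the sources used here. The product of FPKM and gene length, in units of what a single fragment contributes, was whole for 100% of the values above 0 in each library (tolerance 0.01), from which the depth of each library was taken. A group with at most 3 fragments per library was taken as at the limit of detection.

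The comparisons used limma (version 3.58.1, R 4.3.3; lmFit, eBayes with a trend) on log2(FPKM + 1) of all 6 libraries, over 16100 genes with at least 1 FPKM in at least 2 libraries, with 3 residual and 3.12 prior degrees of freedom and Benjamini-Hochberg adjustment, and a gene was called where the adjusted P did not exceed 0.05. The fit was also run on simulated data as a check of the code, which is no evidence for the calls made here. The alternatives were other pseudocounts, filters, scalings, variance settings, a replicate block, leaving out each library, and voom on fragments. Sharing of sequence and exons was computed from GENCODE vM21 transcripts. Named were the called genes, in each family the most abundant gene in non-injection, the 2 most negative and the most positive gene with at least 10 fragments on average, Hnrnpab, members under 1 FPKM throughout, and up to 3 called genes of each other list. The members and lists were chosen with earlier results of these data known. Repeat elements were not analysed here.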

Additional observations from a re-analysis of the deposited data

How the results depend on the processing

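Counts of members called lower in PIASy-WT moved with the processing, and the direction of the medians in both comparisons of PIASy-WT did not change in any alternative. Alternatives that changed only the variance setting, the block or the libraries of the group not compared could not change it. Against non-injection, the main fit called 10 members lower (5.76% of all genes tested). Without a filter on low values 1 was called (0.553%), and with a filter of 5 FPKM 21 were (17.4% of the 8282 genes tested). The count was 1 without a trend (1.59%), 22 with only the groups compared (9.71%) and 35 with voom (19%). Leaving out 1 library moved the calls over all genes as well as over the members. Against PIASy-Mut, the main fit also called 10 members lower (6.01% of all genes tested). The count was 2 without a filter (0.873%), 21 with the filter of 5 FPKM (17.9%) and 6 with quantile normalization (3.04%). It was 4 without a trend (2.88%) and 33 with voom (18.8%). With only the groups compared it was 0, where limma called 0 of all 16100 genes and 31 members were lower at an unadjusted P below 0.05. Leaving out 1 library gave 0 to 23 members called lower than in PIASy-Mut. Genes called higher numbered 1, Lsm1, with only the groups compared, with voom and without either PIASy-Mut library in the comparison with non-injection, and without PIASy-Mut 2 in that with PIASy-Mut, so that leaving out 1 library gave 0 to 1. The cause was not tested. The median log2 fold change was -0.60 in both comparisons with a pseudocount of 5. With quantile normalization it was -0.65 and -0.57, while that of all genes was 0.12 and 0.11. With the filter of 5 FPKM it was -1.05 against PIASy-Mut. Leaving out 1 library gave -0.91 to -0.74 for non-injection, -1.04 to -0.59 for PIASy-Mut and -0.25 to 0.21 for PIASy-Mut against non-injection. The fold change of Srsf3 turned to 0.018 (non-injection) and 0.34 (PIASy-Mut) with quantile normalization and to 0.070 against PIASy-Mut with median ratio scaling, and leaving out 1 library gave -0.61 to 0.074 and -0.37 to 0.31 for Srsf3 in the respective comparisons and -0.012 to 0.94 for Snrpn against PIASy-Mut. With the replicate number as a block, 8 and 9 members were called lower (4.47% and 4.96% of all genes). The correlations of the replicate differences between groups were 0.00368, 0.0851 and 0.0637, which showed no clear pairing of the samples by number. Each difference is between single libraries, whose noise could hide a pairing, so the correlations cannot exclude it. Depth limits the 10 members with under 10 fragments on average, of which 4 were not tested.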
